A study of Homo sapiens with 12 samples.

Results

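In HEK293 cells, an established line from human embryonic kidney, the authors assigned ribosome footprints to 149028 open reading frames (ORFs), and 4828 of these were upstream ORFs that overlap the coding start (uoORFs). All ORFs of the type uoORF in the deposited ORF table were taken, whatever their start codon; 292 start with ATG and 4536 with another codon, and they lie in 2943 genes. Many overlap other called ORFs, so each codon was counted once, with coding ORFs first and higher totals next, which left 3385 uoORFs (201 ATG, 3184 other) in 2708 genes, among 124829 kept ORFs of all types. The 1443 that dropped out (91 ATG) shared a codon with a stronger ORF, in 875 cases another uoORF of the table and in 153 a coding ORF. The 6 groups of libraries are 3 conditions by 2 pooled gradient fractions, monosomes (mRNAs with 1 bound ribosome) and polysomes (mRNAs with several). Log phase cells grew in DMEM with 10% FBS, serum-starved cells were kept 2 h without FBS, and amino acid-starved cells were kept 1 h in EBSS with MEM vitamins and 10% FBS. All lysates held cycloheximide, which stalls ribosomes, at 100 µg/ml. Each group has 2 libraries, A and B, which no label calls separate cultures, so every p-value measures the spread between these libraries, which may be technical.

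A scanning ribosome that starts at an upstream codon and reads past the main start codon in another frame leaves the mRNA downstream of that start. A uoORF that overlaps the coding start is therefore the textbook case of an inhibitory leader ORF, and the ATF4 and PPP1R15 mRNAs are known for leader ORFs through which the coding ORF responds to phosphorylation of eIF2 under amino acid shortage. Starts at codons that differ from ATG by 1 base are known to be used less often than ATG and to depend on the neighbouring bases, in particular a purine 3 bases before the start and a G right after it, and on the factors eIF1 and eIF5, which act against and for weak starts.

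Monosome libraries held 354507 to 1204002 footprints, 119947 to 346200 of them in coding ORFs, and polysome libraries 2477823 to 7683729, with 1493881 to 5313462 in coding ORFs. The uoORFs held 7402.5 to 34853 footprints in each monosome library and 59712 to 258064 in each polysome library. At this depth 35.5 to 69.6% of the kept uoORFs had at least 1 footprint in a given monosome library, against 80.6 to 95.2% in a polysome library. Of 9 genes taken as marks of HEK293, VIM (2360 coding footprints in all), NEFM (26229) and LIN28B (1096) were read well, CDH2 (44.8), PODXL (20.4) and KRT8 (19.2) weakly, and INA, PAX2 and KRT18 had no kept coding ORF under these names. Library A of the serum starvation monosomes, the shallowest of all, stood apart in its uoORF footprints, and the sums are given with and without it.

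The start contexts of uoORFs that the results turn on are shown first: some of the most read (CYCS, RPL38, H2BC21, RPS14 and MAX), some with ATG starts (PSMC5, AUP1 and IST1), the one with the smallest caller p-value (TFAM), and a pair whose ratio to coding differed between the fractions in opposite directions (SDHB and UQCC5). Each is 24 bases, 5′ to 3′, with the called start codon in capitals after the 12 bases before it, read from RefSeq sequence (GRCh38.p14, the assembly of hg38) around annotated gene starts. The start codons of MAX (−81), SDHB (−78) and AUP1 (−15) lie upstream of the annotated gene start. Those of CYCS (5), IST1 (7) and RPS14 (11) lie so close to it that part of the 12 bases is upstream of it. In the TFAM stretch an ATG follows the called GTG in the same frame, and which of these starts was used was not tested.
CYCS, chr7:25125244-25125267, minus strand: tggacttagagaGTGgggacgtcc
MAX, chr14:65102353-65102376, minus strand: gccgccgctgcaGTGgccgctccc
RPL38, chr17:74203687-74203710, plus strand: ccttttccccggTTGctgcttgct
RPS14, chr5:150449717-150449740, minus strand: tctctctttccgGTGtggagtctg
H2BC21, chr1:149886639-149886662, minus strand: cgcgtttgtactGTGtcttaccat
PSMC5, chr17:63827450-63827473, plus strand: aagacggctcggATGccggcggtc
AUP1, chr2:74529710-74529733, minus strand: caccccgggcggATGcccaaagac
TFAM, chr10:58385412-58385435, plus strand: agtgcctcgctaGTGgcgggcatg
IST1, chr16:71895526-71895549, plus strand: tcgccattttggATGgtgaaccct
SDHB, chr1:17054099-17054122, minus strand: agtgggtcctcaGTGgatgtaggc
UQCC5, chr3:52536623-52536646, plus strand: cagtggcggaggACGgcgctcgct
The windows around gene starts covered 1191 of the 3385 uoORF starts, and the called codon was read at 1173 of these positions. Of 50 ATG uoORFs with a full context, 19 (38%) had A or G 3 bases before the start and 42% had G right after it, and 20% had both. The 294 ATG upstream ORFs that end before the coding start (uORFs) had these bases in 58.8%, 49.7% and, for both, 35.0%. Over the 105855 ATG codons in all 35116 windows the shares were 54.1%, 28.5% and 16.3%. Among 968 uoORFs with other starts, 52.5% had the purine, 34.6% the G and 19.9% both, against 52.0%, 28.7% and 15.8% of all such codons in the windows. These shares describe the matched windows and were not tested.

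ATG starts made up 5.94% of the kept uoORFs and 13.1% of the 10272 kept uORFs. The most frequent uoORF start was CTG (757), then AGG (543), GTG (503), TTG (333), AAG (332) and ACG (262), with ATG (201) in seventh place, and ATC (188), ATT (169) and ATA (97) after it. By footprints the order was different: GTG starts held 20.3% of all uoORF footprints, CTG 18.2%, TTG 17.3% and ATG 3.17%. The median uoORF was 87 nt long (ATG 78 nt), with a range of 6 to 852 nt. Its median total over the 12 libraries was 81.3 footprints (ATG 68.1, other starts 82.1), and 219 uoORFs (17 ATG) had under 10 in all. The reads were concentrated: 111 uoORFs held 50% of all uoORF footprints and the 10 largest held 15.3%. The caller's own p-value per ORF, deposited by the authors, had a median of 0.555 for uoORFs (ATG 0.342); it was under 0.05 for 348 (47 ATG) and under 1e-4 for 19 (2 ATG).

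Of the 3385, 2693 (143 ATG) had a kept coding ORF of the types CDS, Trunc or Variant in the same gene. Bases shared with it were found for 1674 (73 ATG), with a median of 56 shared bases (ATG 47) and, for the 1247 that start upstream of that coding ORF, a median of 44 bases upstream; the other 427 have no base upstream of it. Counting each codon once removes ORFs that share a codon with a kept coding ORF, so an absence of the coding frame among the 1674 follows from that rule. Of these, 804 were shifted by 1 base and 870 by 2 (ATG 43 and 30). Another 1019 shared no base with a kept coding ORF of their gene, and 692 had none to be compared with.

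uoORFs were read at a small part of the level of the coding ORFs of their genes. Over the 2548 uoORFs with at least 10 footprints in both, the median was 5.99 uoORF footprints per 100 coding footprints (quartiles 2.45 and 15.8). The 134 with ATG starts had a median of 8.87 (quartiles 2.84 and 23.0) and the 2414 with other starts 5.88. Per base of ORF, the median density was 0.368 of the coding density (ATG 0.579, other 0.361). Density was above that of the coding ORF for 29.9% of ATG uoORFs (40) and 16.1% of the others (389). More footprints than on the coding ORF were found for 101 uoORFs, 8 of them ATG. By start codon the median per 100 coding footprints ran from 4.62 for ATA to 7.50 for TTG among other starts, all under that of ATG.

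The most read ATG uoORF by mean level lies in DDX39B, an RNA helicase of splicing and mRNA export (chr6:31540507-31541195, minus strand, 201 nt, 4182 footprints). Values are given here and from here on as library A and then B. In CPM, counts scaled to each library's depth and TMM factor, it stood at 81.4 and 159.7 in log phase monosomes, 76.6 and 261 in amino acid starvation monosomes and 350.3 and 762 in serum starvation monosomes. In polysomes it stood at 31.2 and 101, 47.9 and 174, and 40.6 and 109 in the same order. B was above A in every group. The fractions overlapped in log phase and amino acid starvation and were apart in serum starvation. Against its coding ORF it stood at 7.99 to 18.0 per 100 coding footprints in 10 libraries and higher, at 54.6 and 29.5, in serum starvation monosomes. ATG uoORFs of PSMC5, an ATPase of the 19S proteasome (1390 footprints, 14.6 per 100 coding), and AUP1, a lipid droplet and ER degradation protein (996, 17.2), stood at 8.66 to 31.4 and 13.6 to 43.1 per 100 coding in single libraries.

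Among other starts the most read uoORFs lie in genes of histones and ribosomal proteins. A TTG uoORF of H1-4, a linker histone, had 44382 footprints (14.5 per 100 coding), a TTG uoORF of RPL38 33910 (32.8), a GTG uoORF of H2BC21, a histone H2B, 15599 (19.0), and a GTG uoORF of RPS14 14388 (32.1). All 72 bases of the H1-4 uoORF and all 18 of the H2BC21 uoORF lie within the kept coding ORF they are set against, in another frame, with none upstream of it. These families have near-identical copies, so the division of reads among them is uncertain. The RPS14 uoORF stood at 103 and 82.9 per 100 coding footprints in log phase monosomes, 51.2 and 54.0 in amino acid starvation and 65.4 and 56.7 in serum starvation monosomes. In polysomes it stood at 33.8 and 23.0, 22.9 and 23.0, and 27.4 and 37.1 in the same order. All 6 monosome libraries lay above all 6 polysome libraries, though the difference missed the threshold (log2 1.29 ± 0.37 SE, adjusted p = 0.0607, edgeR quasi-likelihood test; 0.0153 with a replicate block, that is, with the letter added to the model).

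The first comparison asks whether uoORFs are read by monosomes more than by polysomes. Summed over all kept uoORFs, the share of a library's footprints was 3.72 ± 2.5% in monosomes and 3.71 ± 0.96% in polysomes (SD, n = 6), a difference that the exact permutation test did not call (two-sided p = 1, fraction labels permuted within condition, smallest possible p 0.00926). For ATG starts the shares were 0.125 ± 0.0628% and 0.118 ± 0.0252% (exact p = 0.796). Single libraries ran from 0.986% (amino acid starvation monosome A) to 8.07% (serum starvation monosome A), and without the latter the mean difference was −0.65 percentage points (ATG 0.0168).

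**Figure D1:**
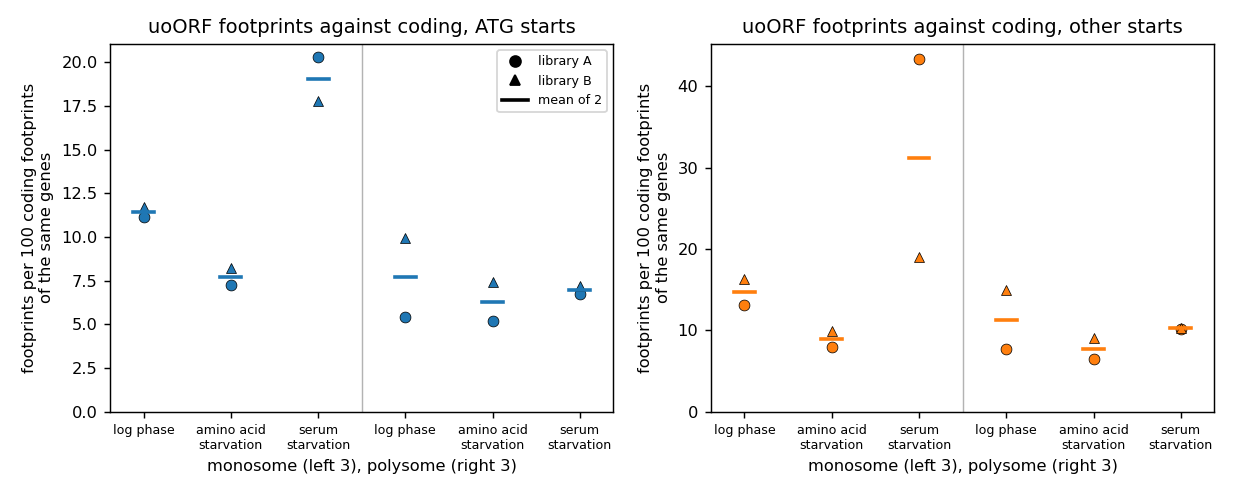
Footprints of all kept uoORFs per 100 coding footprints of the same genes, for ATG starts (left) and other starts (right), by condition and fraction; circles are library A, triangles library B, bars the mean of 2. Serum starvation monosomes are highest in both panels, and library A of that group reaches 43.3 for other starts.

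Against the coding ORFs of the same genes, uoORFs with ATG starts stood at 11.1 and 11.7 footprints per 100 coding footprints in log phase monosomes, 7.23 and 8.20 in amino acid starvation monosomes and 20.3 and 17.8 in serum starvation monosomes. In polysomes they stood at 5.43 and 9.95, 5.17 and 7.39, and 6.74 and 7.22 in the same order. Monosomes were higher in log phase and serum starvation without overlap, and the fractions overlapped in amino acid starvation. The mean difference was 0.80 on the log2 scale (exact permutation p = 0.0185, adjusted p = 0.278 over the 15 tests of this family; 0.77 without library A of the serum starvation monosomes). Other starts stood at 13.1 and 16.3, 8.00 and 9.92, and 43.3 and 19.0 in monosomes, and at 7.64 and 14.9, 6.41 and 8.99, and 10.1 and 10.3 in polysomes, with a difference of 0.72 (exact permutation p = 0.0556, adjusted p = 0.278; 0.52 without that library). Over all starts it was 0.73 (adjusted p = 0.278), and 0.54 without that library. None of these passed the threshold after adjustment. Over the 788 uoORFs (29 ATG) with at least 20 coding footprints of their gene in every library, the median was 4.01 and 5.46 per 100 coding in log phase monosomes against 2.33 and 5.34 in polysomes, 10.2 and 6.17 against 3.26 and 4.16 in serum starvation, and 2.52 and 3.25 against 2.20 and 3.74 in amino acid starvation, where the fractions overlapped and library B was lower in monosomes.

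Set against uORFs, the ATG uoORFs had 14.4 and 12.4 footprints per 100 ATG uORF footprints in log phase monosomes, 14.9 and 13.9 in amino acid starvation and 24.4 and 26.1 in serum starvation monosomes. In polysomes they had 21.2 and 22.4, 21.2 and 24.4, and 23.7 and 14.4 in the same order. Monosomes were thus lower in log phase and amino acid starvation and higher in serum starvation, each without overlap. Pooled over the conditions, the difference was −0.31 on the log2 scale (exact permutation p = 0.25, adjusted p = 0.469; −0.29 without library A of the serum starvation monosomes). For all starts the difference was −0.25 (exact permutation p = 0.426, adjusted p = 0.606), and −0.48 without that library (exact permutation p = 0.0556, adjusted p = 0.194). Neither difference between overlapping and non-overlapping upstream ORFs passed the threshold.

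Levels of single uoORFs were then compared in a fit over all features, with 1 row per non-coding ORF and 1 per gene for its coding ORFs. Of 1582 uoORFs that passed the filter on low counts, 448 (28.3%) differed between monosomes and polysomes over the 3 conditions (edgeR quasi-likelihood, Benjamini-Hochberg adjusted p under 0.05), 183 higher and 265 lower in monosomes, where 39.5% of all 26158 features (16.7% higher, 22.7% lower) and 34.7% of 2099 uORFs were called. With the replicate block 279 were higher and 408 lower (ATG 15 and 20), where 54.4% of all features were called (22.5% higher, 32% lower). ATG starts gave 13 higher and 11 lower of 90, other starts 170 and 254 of 1492. The median log2 difference was −0.42 for uoORFs (ATG −0.17, other −0.43) and −0.48 for all features. Direction depends on the scaling: with scaling on coding footprints the median of all features moved to 0.17 and the uoORF calls to 311 higher and 77 lower, 80.2% higher in place of 40.8%. The 1803 uoORFs below the filter were not tested, and a uoORF could pass it through the libraries of 1 group.

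Higher in monosomes without overlap were, in order of size, the uoORFs of SNRNP25, a protein of the minor spliceosome (AAG start, no base shared with the kept coding ORF, log2 5.57 ± 0.53, adjusted p = 5.49e-06), BLOC1S2, a subunit of lysosome-related organelle complexes (CTG, 5.40 ± 0.75, adjusted p = 0.000125), ENSG00000071655_ENSG00000127540 (AGG, 5.16 ± 0.62, adjusted p = 3.50e-05), ATP5F1E, the epsilon subunit of ATP synthase (ACG, 4.94 ± 0.54, adjusted p = 1.82e-05), KXD1, a subunit of a lysosome-positioning complex (GTG, 4.45 ± 0.71, adjusted p = 0.000391), and GPX1, glutathione peroxidase (CTG, no base shared with the kept coding ORF, 4.34 ± 0.47, adjusted p = 1.69e-05). In CPM SNRNP25 stood at 422 and 463, 120.0 and 143, and 585 and 121 in log phase, amino acid starvation and serum starvation monosomes, and at 7.84 and 4.79, 6.63 and 3.76, and 7.86 and 3.70 in polysomes, a fitted 47.4-fold difference. The ATP5F1E uoORF had the same pattern, at 102 to 695 CPM in monosomes and 3.74 to 16.3 in polysomes. Relative to the coding ORFs of the same gene, none of the 5 with a tested ratio passed the threshold. ATP5F1E differed by 0.16 (adjusted p = 0.898, edgeR quasi-likelihood interaction test), BLOC1S2 by 0.18 (adjusted p = 0.809), GPX1 by 1.39 (adjusted p = 0.0859, and 0.0180 with the replicate block), ENSG00000071655_ENSG00000127540 by 1.53 (adjusted p = 0.196, and 0.0433 with it) and SNRNP25 by 1.97 (adjusted p = 0.0763, and 0.00842 with it).

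Among those lower in monosomes without overlap, the 6 with the largest fitted differences were nearly unread there. They lie in DBF4, the activator of the CDC7 replication kinase, ASF1B, a histone chaperone, ZNF460, a zinc finger protein, TPD52L2, GNAI2, an inhibitory G protein subunit, and HEBP1, a heme-binding protein. Their summed footprints over the 6 monosome libraries were 0.6, 1.7, 0.5, 2.1, 1.7 and 2.2, against 107.3, 259.5, 108.9, 189.6, 182.1 and 164.6 over the 6 polysome libraries. They passed the filter on low counts only through the polysome libraries, so these values are a description, with no test and no fold.

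ATG uoORFs past the threshold are given apart; they were named after their values were seen. The uoORF of LSM10, a protein of the U7 snRNP that processes histone mRNA, is 75 nt long. In CPM it stood at 122 and 44.5, 18.9 and 23.2, and 10.2 and 12.2 in monosomes against 1.17 to 2.99 in polysomes, without overlap. Those of BBIP1, a BBSome subunit (54 nt), and TMEM230 (132 nt) were also higher in monosomes. LSM10, BBIP1 and TMEM230 passed the filter on low counts only through the monosome libraries, so no level test or fold is given for them. Other ATG uoORFs higher in monosomes included those of ZDHHC4, NDUFAF8, NSMF, TMEM126B, VCF2, COX14, HPS1, DDX39B (1.46 ± 0.51, adjusted p = 0.0352, edgeR quasi-likelihood test) and XRCC2. Of these, NDUFAF8, NSMF, TMEM126B, COX14 and HPS1 also passed the filter only through the monosome libraries. Relative to coding, COX14 (−0.94), NDUFAF8 (−0.30) and NSMF (−0.29) were below 0. DDX39B (0.16), XRCC2 (0.80), TMEM126B (1.66) and ZDHHC4 (2.66) were above 0, and VCF2 alone passed. LSM10 and HPS1 had no ratio to coding. Those lower in monosomes included CCDC125, SLC35B4, a nucleotide sugar transporter, ALG14, OCIAD1, IMPDH1, MMGT1, EDC3, ENSG00000154174, SDHD (−1.62 ± 0.39, adjusted p = 0.00556, edgeR quasi-likelihood test) and PSMA4. CCDC125 had 0 to 2 footprints in single monosome libraries against 4 to 50.4 in polysomes, and SLC35B4 0 to 3.3 against 10.4 to 98.6. ALG14, OCIAD1 and EDC3 had at most 4.5 in any monosome library. CCDC125, SLC35B4, ALG14, OCIAD1 and EDC3 passed the filter on low counts only through the polysome libraries, so no test or fold is given for them. The SDHD uoORF, in the gene of the membrane anchor of succinate dehydrogenase, stood at 10.8 to 17.6 CPM in monosomes and 21.5 to 55.0 in polysomes, without overlap.

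The comparison over coding tests whether the ratio of a uoORF to the coding ORFs of its own gene differs between the fractions, which takes out mRNA level and scaling. Of 1454 uoORFs tested, 76 (5.23%) differed, 69 higher and 7 lower in monosomes, where 6.78% of all 10564 ORFs so tested (5.77% higher, 1% lower) and 10.6% of 1672 uORFs were called (edgeR quasi-likelihood interaction test, adjusted p under 0.05). ATG starts gave 5 higher and 0 lower of 73 (18 at an unadjusted p under 0.05, and 8 calls with DESeq2), other starts 64 and 7 of 1381. The share called among uoORFs is near the background. The median log2 difference was 0.46 for uoORFs (ATG 0.55) and 0.31 for all ORFs tested. With the replicate block 195 were higher and 26 lower, where 15.4% of all ORFs were called (12.1% higher, 3.39% lower).

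**Figure D2:**
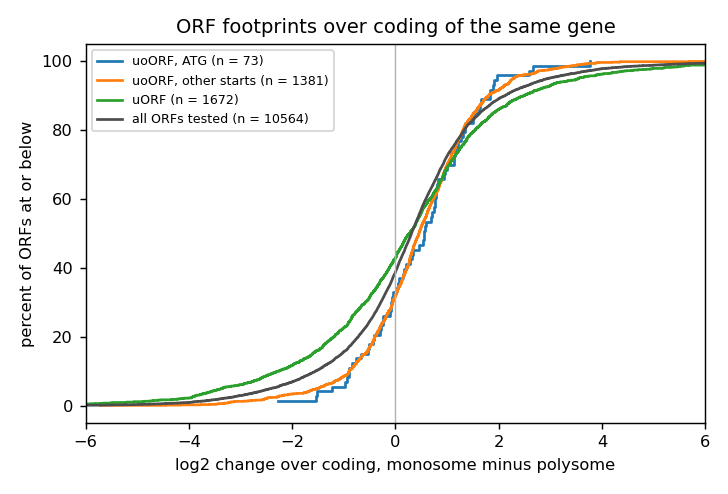
Cumulative share of ORFs (percent) by the log2 difference over coding, monosome minus polysome, for uoORFs with ATG and other starts, uORFs and all ORFs tested. The medians are 0.55 for ATG uoORFs, 0.46 for other uoORFs, 0.28 for uORFs and 0.31 for all ORFs.

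The 69 higher uoORFs lie in 63 genes, and a coding row shared by several of them is counted once for each. For 39 of the 69 uoORFs the coding row of the gene was lower in monosomes past the threshold and for 2 higher. The uoORF itself was higher for 36 and lower for 0 of the 69 (edgeR quasi-likelihood test on levels). Their median differences were −1.08 for the coding rows, 1.47 for the uoORFs and 2.51 for the ratio. Over all coding rows 1756 of 4652 were lower and 372 higher, with a median of −0.85. The 69 were chosen by the ratio, so this split is a description. Bases shared with a kept coding ORF of the gene were found for 40 of the 69 and for 1079 of the 1454 tested.

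SDHB, the iron-sulfur subunit of succinate dehydrogenase, gave the smallest adjusted p. Its GTG uoORF (chr1:17044776-17054110, minus strand, 276 nt over a spliced stretch, no base shared with the kept coding ORF, 353 footprints) stood at 30.7 and 62.8 per 100 coding footprints in log phase monosomes, 20.3 and 35.4 in amino acid starvation and 44.1 and 25.8 in serum starvation monosomes. In polysomes it stood at 1.98 and 2.53, 3.88 and 1.66, and 2.25 and 1.5. The fractions were far apart in each condition, by a log2 difference of 3.93 ± 0.44 (adjusted p = 0.000729, edgeR quasi-likelihood), 15.3-fold, and its own level was also higher in monosomes (1.58 ± 0.50, adjusted p = 0.0226). UBR7, of the N-recognin family of ubiquitin ligases, has 2 such uoORFs, with AAG and ACG starts, which share their mRNA and coding row. The AAG one (chr14:93185030-93186361, plus strand, 105 nt) stood at 124 and 135, 103 and 82.9, and 404 and 39.7 per 100 coding in monosomes and at 8.48 and 0.883, 2.18 and 0.294, and 7.63 and 0.943 in polysomes. A was above B in all 3 polysome groups, by less than the gap between fractions (5.69 ± 0.85, adjusted p = 0.00296, and 6.46 for the ACG uoORF, adjusted p = 0.00218). Neither UBR7 uoORF shares a base with the kept coding ORF. FAM118A (AGG start, no base shared) stood at 48.5 to 486 in monosomes and 6.08 to 20.3 in polysomes (3.70 ± 0.48, adjusted p = 0.00146). A second PSMC5 uoORF, with an ATT start, stood at 3.36 to 34.4 and 0.242 to 2.85 (3.88 ± 0.72, adjusted p = 0.00892), while the ATG uoORF of the same gene differed by 0.28 (adjusted p = 0.765). NUDT1, which removes oxidised purine nucleotides, had a TTG uoORF with a difference of 3.74 (adjusted p = 0.0115). Beside them, the ATG uoORFs past this threshold were those of BBIP1, ENSG00000239264_ENSG00000124802, TMEM230, ENSG00000104660_ENSG00000104671 (1.96) and VCF2 (1.83). BBIP1, ENSG00000239264_ENSG00000124802 and TMEM230 passed the filter on low counts only through the monosome libraries, so no test or fold is given for them. VCF2 stood at 142 to 543 per 100 coding in monosomes and 53.7 to 173 in polysomes, so its fractions overlapped slightly.

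The reverse pattern was rare. UQCC5, an assembly factor of respiratory complex III, has an ACG uoORF (chr3:52536635-52536880, plus strand, 246 nt, 440.1 footprints) that stood at 12.2 and 12.6, 5.17 and 3.53, and 0.547 and 5.25 per 100 coding in monosomes and at 28.9 and 28.6, 15.5 and 36, and 29.8 and 27.1 in polysomes. No monosome library reached a polysome one (−2.29 ± 0.46, adjusted p = 0.0134, edgeR quasi-likelihood). EZH2, the methyltransferase of Polycomb complex 2, had an ATA uoORF with a difference of −3.12 (adjusted p = 0.0461), but only 55.6 coding footprints in all stand behind that ratio; it shares no base with the kept coding ORF, nor do the uoORFs of PHKG2 and RPL9. PHKG2, the catalytic subunit of phosphorylase kinase (AGG, −3.11, adjusted p = 0.0348), RPL9 (CTG, −1.90, adjusted p = 0.0310) and BRK1, a WAVE complex subunit (AGG, −1.75, adjusted p = 0.0419), followed. Among the alternative settings, the EZH2 call was lost under 13 and kept under 4, that of BRK1 lost under 12 and kept under 5, that of RPL9 lost under 10 and kept under 7, and that of PHKG2 lost under 10 and kept under 6. The UQCC5 call was lost under 1 and kept under 17, and none of these 5 turned direction. The last of the 7, COX17 (−1.77) and ATF7 (−1.71), named after their values were seen, overlapped between fractions. Leaving out 1 library changed the number of over-coding calls from 76 to between 19 (without amino acid starvation monosome B) and 106.

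**Figure D3:**
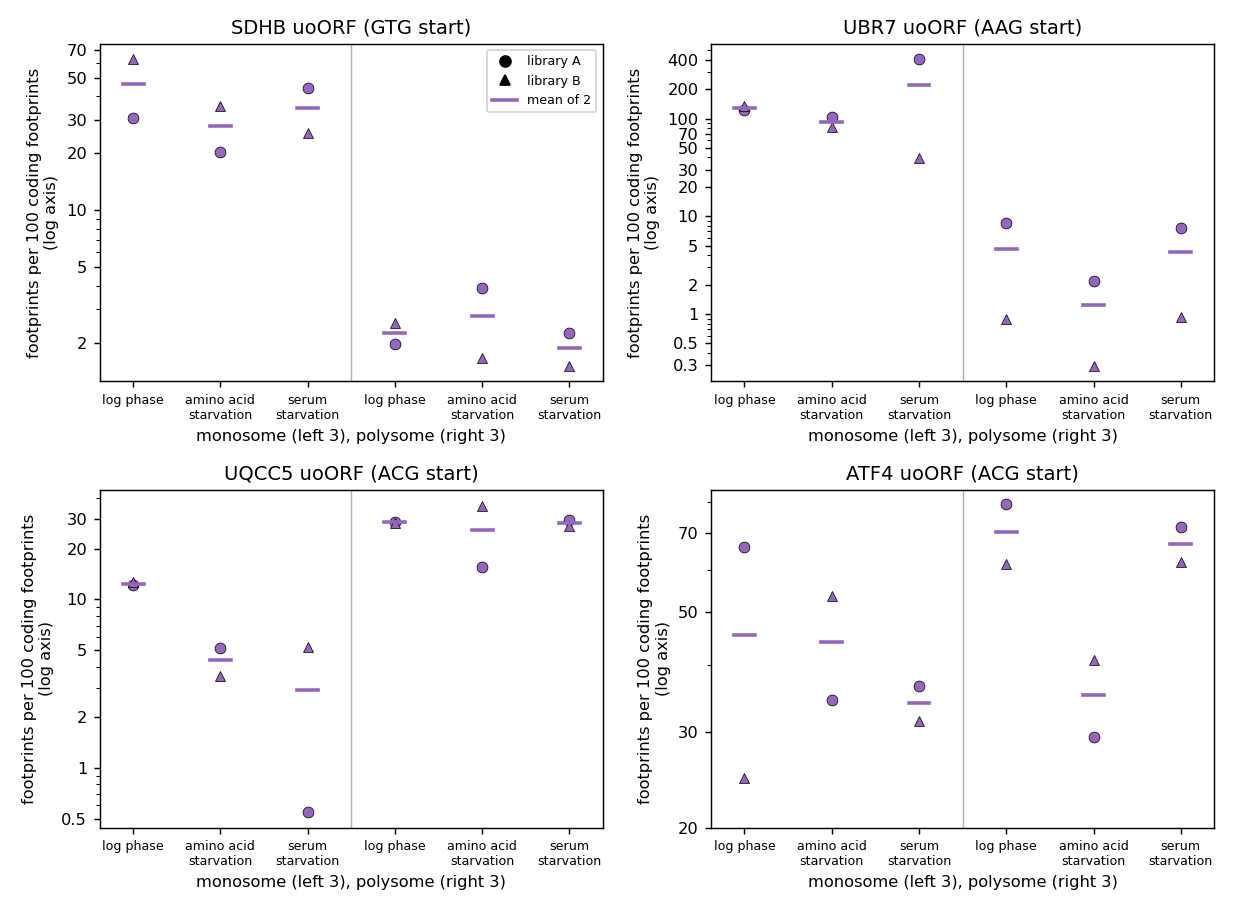
Footprints per 100 coding footprints of the same gene (log axis) for the uoORFs of SDHB, UBR7, UQCC5 and ATF4, by condition and fraction; circles are library A, triangles library B, bars the mean of 2. SDHB and UBR7 are higher in all monosome libraries, UQCC5 in all polysome libraries, and ATF4 is lowest among polysomes in amino acid starvation.

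Starvation was compared with log phase within each fraction. No uoORF passed the threshold in levels in any of the 4 comparisons, where 0% of all 26158 features were called (edgeR quasi-likelihood, Benjamini-Hochberg). At an unadjusted p under 0.05 there were 113 of 1582 uoORFs for amino acid starvation in polysomes, 65 in monosomes, and for serum starvation 2 in polysomes and 73 in monosomes. DESeq2 called 16 for amino acid starvation in polysomes, all lower, and 1 in monosomes, and none for serum starvation. Median log2 differences for amino acid starvation were −0.37 in polysomes and −0.55 in monosomes, against −0.01 and −0.07 for all features. For serum starvation they were −0.09 and 0.02, against 0.04 and 0.09. Over coding no uoORF passed either, where 0% of 10564 ORFs were called, with 6, 59, 1 and 82 of 1454 at an unadjusted p under 0.05 in the same order; DESeq2 called none. The summed uoORF footprints per 100 coding were lower under amino acid starvation by 0.60 on the log2 scale (exact permutation p = 0.111, adjusted p = 0.333; 36 arrangements, smallest possible p 0.0556), and for ATG starts by 0.41 (exact permutation p = 0.167, adjusted p = 0.417). Under serum starvation they differed by 0.46 (exact permutation p = 0.389, adjusted p = 0.606; 0.17 without library A of the serum starvation monosomes), and by 0.33 for ATG starts (exact permutation p = 0.222, adjusted p = 0.469; 0.28 without that library).

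With the replicate block, 38 uoORFs were lower in amino acid starvation polysomes and none higher, where 1.64% of all features were called (0.386% higher, 1.26% lower); none has an ATG start. They lie in 30 genes, and 24 of the 38 lie in genes with ribosomal protein symbols (genes left under identifiers were not counted, so these numbers are minimums), whose mRNAs begin with a pyrimidine tract and are the textbook targets of translational control by mTOR. This group was picked after its values were seen, so it is described without a test. The largest were uoORFs of RPL18 (CTG start, −3.58 ± 0.66, adjusted p = 0.0109 with the block and 0.752 without), RPL37 (AAG, −3.50 ± 0.65, adjusted p = 0.0109 with the block) and RPL27A (AAG, −3.45 ± 0.59, adjusted p = 0.00958 with the block). Outside the ribosomal proteins, OST4, a subunit of the oligosaccharyltransferase, stood at −3.40 (adjusted p = 0.0265) and H3-3A, histone H3.3, at −2.27 (adjusted p = 0.0378), edgeR quasi-likelihood test with the block. The coding row of the gene was below 0 for 37 of the 38 and past the threshold for 11, with medians of −2.58 for the uoORFs and −2.17 for the coding rows, and the ratio over coding passed the threshold with the block for 0 of the 38, where 0.00947% of all ORFs (1, higher) were called. H3-3A was the exception, with a coding row at 0.06.

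Under ribosomal protein symbols, 76 kept uoORFs (1 ATG) lie in 51 genes and hold 17.3% of the uoORF footprints. Their share of a library's uoORF footprints was 22.2 and 23.4% in log phase monosomes, 13.6 and 15.5% in amino acid starvation and 26.0 and 28.2% in serum starvation monosomes. In polysomes it was 23.7 and 15.9%, 7.41 and 6.82%, and 20.8 and 12.6%. Amino acid starvation libraries were lowest in both fractions, without overlap with log phase. Of 73 tested for amino acid starvation against log phase in polysomes, 72 were below 0, with a median of −2.12 (−2.45 to −1.88 over 22 settings). The threshold was passed by 0 without the block and 24 with it, where 0% and 1.26% of all features were called lower. The coding rows of the 51 genes had a median of −2.11, with 51 below 0 and 15 past the threshold with the block. Over coding the median was −0.15, with 0 past the threshold with or without the block. In monosomes the median level was −1.13, with 65 of 73 below 0, and −0.49 for the coding rows, with 37 of 51 below 0. Most uoORFs of any gene were below 0 too. Of all 1582 tested, only 451 were above 0 in monosomes (median −0.55) and 524 in polysomes (median −0.37).

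**Figure D4:**
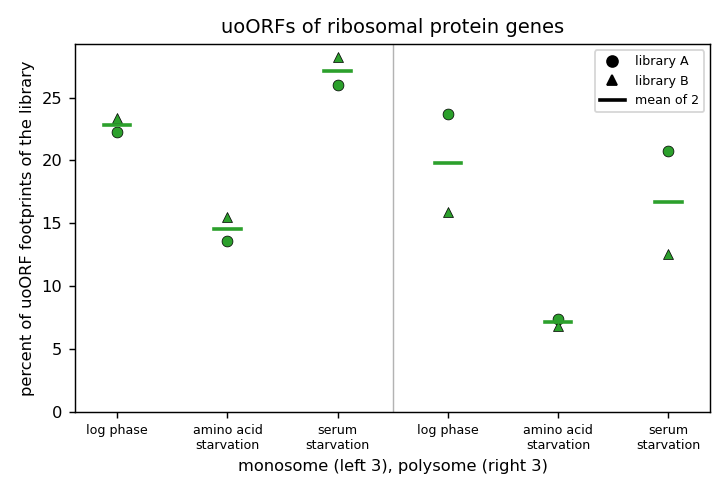
Share of each library's uoORF footprints (percent) that lies in the 76 uoORFs of genes with ribosomal protein symbols, by condition and fraction; circles are library A, triangles library B, bars the mean of 2. Amino acid starvation libraries are lowest in each fraction, at 7.41 and 6.82% in polysomes.

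Between the fractions, 14 uoORFs of ribosomal protein genes were higher and 3 lower in monosomes in level of 73 tested, where 39.5% of all features were called. Over coding 4 were higher and 1 lower of 73, where 6.78% of all ORFs were called (23 and 2 with the block, where 15.4% were called), with a median of 1.00. RPS21 (AGG start, 8070 footprints) was higher in monosomes (3.13 ± 0.56, adjusted p = 0.000905) and held 0.423% of library A of the serum starvation monosomes, the largest share of any uoORF, at 221 per 100 coding footprints there and 19.9 to 39.0 in the other 11 libraries. RPS25 (ATT start) was also higher (2.21 ± 0.51, adjusted p = 0.00429), with 23.7 to 93.1 per 100 coding in monosomes and 13.6 to 19.0 in polysomes, without overlap (over coding 1.35, adjusted p = 0.0531, and 0.0109 with the block; edgeR quasi-likelihood).

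Of 18 genes with stress-regulated upstream ORFs, 6 had a kept uoORF (9 uoORFs, none ATG). The ACG uoORF of ATF4, the transcription factor of the amino acid response, spans 168 nt (chr22:39521361-39521528, plus strand), with 64 bases upstream of the coding ORF and 104 shared with it. It had 1148 footprints against 2024 coding ones, 56.7 per 100, at 3.64 times the coding density. Per 100 coding footprints it stood at 66.2 and 24.7, 34.4 and 53.6, and 36.6 and 31.5 in log phase, amino acid starvation and serum starvation monosomes, and at 79.4 and 61.4, 29.4 and 40.9, and 72.1 and 61.9 in polysomes. Amino acid starvation was lowest in polysomes without overlap, with no such order in monosomes. The difference from log phase in polysomes was −1.02 ± 0.65 over coding (unadjusted p = 0.141, adjusted p = 1, edgeR quasi-likelihood), which does not pass. Between fractions ATF4 did not pass over coding (−0.49, adjusted p = 0.495), and its level passed with the block alone (0.95, adjusted p = 0.137, and 0.00683 with it).

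The other stress genes with a uoORF were ATF3, EPRS1, HSPA5, PPP1R15B and QRICH1. PPP1R15B, a phosphatase subunit that acts on eIF2, has an ATT uoORF of 453 nt with 571 footprints against only 43 coding ones, lower in monosomes in level (−1.53 ± 0.55, adjusted p = 0.0404). HSPA5, the ER chaperone BiP, has a GTG uoORF that was lower (−3.14 ± 1.05, adjusted p = 0.0294) and an AAG uoORF that did not pass (−0.77, adjusted p = 0.258). QRICH1, a transcriptional regulator of the ER stress response, has a TTG uoORF that was higher (1.88 ± 0.61, adjusted p = 0.0244). Of 8 tested, 1 was thus higher and 2 lower, where 39.5% of all features were called, and of the 6 tested coding rows of the list also 1 and 2. Over all coding rows 372 of 4652 were higher and 1756 lower.

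Factors of start codon selection and reinitiation gave 14 of 23 genes with a kept uoORF (18 uoORFs, none ATG). Between the fractions, 1 was higher in monosomes and 5 lower of 15 tested, near the 39.5% called among all features, beside 1 and 8 of 19 coding rows of the list. EIF5, the activating protein of eIF2 that favours weak starts and represses its own start through an upstream ORF, has an AGG uoORF of 483 nt with 2069 footprints (73.9 per 100 coding), which shares no base with the kept coding ORF. It stood at 43.9 and 25.4, 38.9 and 10.3, and 21.1 and 16.1 per 100 coding in monosomes and at between 50 and 192 in polysomes, without overlap. Its level was lower in monosomes (−2.14 ± 0.43, adjusted p = 0.00175), and over coding it lay at the threshold (−1.96 ± 0.54, adjusted p = 0.0502, and 0.000811 with the block). An ATT uoORF of the same gene was also lower (−1.54, adjusted p = 0.0234). The uoORFs of EIF2S2, the beta subunit of eIF2, were lower for a GTG start (−2.79 ± 0.57, adjusted p = 0.00216) and an AAG start (−2.23, adjusted p = 0.0401), as was that of EIF1AX, which encodes eIF1A (TTG, −2.54 ± 0.60, adjusted p = 0.00499). The 1 higher was in EIF3E, a subunit of eIF3 (TTG, 2.25 ± 0.48, adjusted p = 0.00259), at 18.6 to 194 per 100 coding in monosomes and 6.56 to 25.7 in polysomes.

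Of 19 genes with a known second protein or regulatory ORF near the 5′ end, 9 had a kept uoORF and 4 could be tested. The GTG uoORF of TXNRD1, thioredoxin reductase, was lower in monosomes (−2.81 ± 0.47, adjusted p = 0.000558, edgeR quasi-likelihood), at 2.12 to 5.22 CPM against 14.4 to 46.6, while over coding it did not pass (−0.86, adjusted p = 0.293). MYC had an ATA uoORF of 2517 footprints at 5.48 to 19.6 per 100 coding in single libraries, which differed by 0.14 between fractions (adjusted p = 0.822). ZNF706 had a GTG uoORF with nearly as many footprints as its coding ORF (83.9 per 100), at 43.0 to 108 in monosomes and 74.9 to 113 in polysomes. Over coding no member of the 3 lists passed in any comparison without the block, of 6, 14 and 3 tested, and none passed in level under starvation. With the block the GTG uoORF of HSPA5 (adjusted p = 0.0837 without and 0.0327 with it) and the AGG uoORF of EIF5 were lower over coding in monosomes, and the TTG uoORF of EIF3E was higher (adjusted p = 0.108 without and 0.00714 with it).

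The 19 uoORFs with a caller p-value under 1e-4 are described last; they were named after their values were seen. The most read was that of CYCS, cytochrome c (GTG start, chr7:25124112-25125255, minus strand, 72 nt, 22240 footprints, 87.4 per 100 coding and 4.23 times the coding density). In CPM it stood at 60.3 and 60.5, 51.1 and 103, and 60.3 and 71.1 in monosomes and at 205 and 1841, 195 and 542, and 257 and 962 in polysomes. Every polysome library was above every monosome library (−3.18 ± 0.58, adjusted p = 0.00106), and library B exceeded A in each polysome group. Per 100 coding footprints the polysomes ran from 13.8 to 411 and the monosomes from 12.9 to 75.0, so the fractions overlapped (−0.88, adjusted p = 0.628).

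MAX, the partner of MYC, has a GTG uoORF of 36 nt with 2799 footprints (59.4 per 100 coding, 7.96 times the coding density), at 3.42 to 20.4 CPM in monosomes and 37.4 to 179 in polysomes, without overlap (−3.31 ± 0.60, adjusted p = 0.000927). TFAM, the mitochondrial transcription factor, has a GTG uoORF of 309 nt at 5.56 to 19.9 CPM in monosomes and 25.9 to 69.0 in polysomes (−2.38 ± 0.45, adjusted p = 0.00120). For both, the ratio over coding missed the threshold (−1.09, adjusted p = 0.197, and −0.45, adjusted p = 0.616). MCRS1 (ATT start, 58.4 per 100 coding) differed by −0.24 in level (adjusted p = 0.758). Of this set only SNRPC, a U1 snRNP protein, passed over coding (ACG start, 1.69 ± 0.42, adjusted p = 0.0344, edgeR quasi-likelihood). It stood at 8.35 to 56.4 per 100 coding in monosomes and 4.41 to 10.1 in polysomes, so the fractions overlapped. All 78 bases of the SNRPC uoORF lie within the kept coding ORF it is set against, with none upstream of it. The ATG members were those of IST1, an ESCRT factor (87 nt, 23.6 per 100 coding), and ANAPC13, a subunit of the anaphase-promoting complex (276 nt, 711.9 footprints), neither of which passed the threshold in level (−1.71, adjusted p = 0.0738, and 0.0127 with the block, and −0.29, adjusted p = 0.722). The others lie in ENSG00000062485_ENSG00000135473, SLC37A4, CDIPT, DRAP1, FBXO17, PCSK7, TRPM7, TCF3, G6PC3, PIGW, ENSG00000111224 and CFLAR.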

How the data were processed

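Ribosome footprints of 12 libraries (3 conditions, 2 fractions, 2 libraries each) were used. The authors deposited 1 table of expected counts per ORF and library, which by its name comes from the ORF caller PRICE, with the caller's p-value per ORF, deposited by the authors too and used only to describe ORFs and to form a set under 1e-4. Per the labels' protocols, fragments of 17 to 34 nt were kept, amplified by 14 PCR cycles without mention of molecular identifiers and read for 75 nt. The submitters' processing notes name Bowtie 1.0 and hg38 without their role. Coordinates are 1-based hg38.

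Each codon was counted once (coding types first, then higher totals). Coding ORFs (CDS, Trunc, Variant) of a gene were summed, and expected counts were rounded. Genes were named by position from RefSeq, and merged or unmatched genes keep the file's identifiers. Levels were fitted with edgeR 4.0.16 (R 4.3.3): quasi-likelihood test, TMM scaling, filterByExpr (minimum count 10, total 15), 6 group means. The ratio over coding was fitted as an interaction with 24 columns per ORF (uoORF and coding, 12 libraries each), 12 library terms and the ORF by group. Benjamini-Hochberg adjustment ran over all features of a fit, threshold 0.05; errors are standard errors. Sums were compared by exact two-sided permutation. Intervals were not computed, and precision is given by the spread of libraries. Fits were tested on simulated data.

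The uoORFs named are the 6 ATG and 6 other ones with the highest mean level, up to 6 per direction and comparison past the threshold without overlap, and those with at least 10 footprints in genes of 3 lists; others are named as chosen after seeing their values. Some items that these rules name are not reported here. The members and lists were chosen with earlier results of these data known. Letters A and B served as replicate numbers, though no label ties them to the replicate numbers of the samples: B minus A deviations correlated between all 15 pairs of groups (r of 0.233 to 0.760 over all features, 0.227 to 0.740 over uoORFs), so a replicate block is given beside results where it changes a call. Alternatives were RLE, library-size and coding-only scaling, no filter, 50 counts in 2 libraries, DESeq2 1.42.0, the block, the compared groups alone, all ORFs as deposited, CDS-type ORFs alone, caller p under 1e-4, and leaving out each library.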

Additional observations from a re-analysis of the deposited data

Results flagged for a closer look

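The study's groups have 2 libraries each, so single libraries were looked at within the 6 of a fraction, for summed measures only, in 18 sets; chance alone marks about 1 set in 20. Library A of the serum starvation monosomes stood apart from the other 5 monosome libraries in uoORF footprints per 100 coding footprints of the same genes, at 43.2 for all starts and 43.3 for other starts, and in uoORF per 100 uORF footprints, at 254 for all starts and 312 for other starts. Its ATG uoORFs did not stand apart by the same rule. Library B of the serum starvation polysomes stood apart from the other 5 polysome libraries in ATG uoORFs per 100 ATG uORF footprints, at 14.4.

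The difference of monosomes from polysomes in ATG uoORFs per 100 ATG uORF footprints ran opposite ways in all libraries of log phase and serum starvation, by −1.16 on the log2 scale between the conditions, and of amino acid starvation and serum starvation, by −1.11, among 45 pairs looked at. Neither difference was tested.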

How the results depend on the processing

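Over the alternatives, the number of uoORFs whose level differed between fractions (448) was 731 without a filter, 205 at 50 counts in 2 libraries, 706 with all ORFs as deposited and 687 with the replicate block, and 252 to 422 with 1 library left out (252 without amino acid starvation monosome B, 281 without log phase monosome B). For amino acid starvation in polysomes 0 became 1 without a filter, 16 with DESeq2 and 38 with the replicate block, in monosomes 1 with DESeq2 and 13 with the compared groups alone, and for serum starvation in monosomes 1 without a filter; leaving out 1 library kept 0 in each. Over coding, 76 became 28 at 50 counts, 47 at 5 counts, 151 with DESeq2, 221 with the replicate block, 24 with CDS-type ORFs alone (376 uoORFs tested), 159 with all ORFs as deposited, and 19 to 106 with 1 library left out (19, 38, 26, 41, 48, 44 and 44 without amino acid starvation monosome B or A, log phase monosome B or A, serum starvation monosome A, and polysome A of amino acid or serum starvation). The difference in uoORF share (0.0071 percentage points) was −0.13 with caller p under 1e-4, −0.10 without the RPS21 uoORF (chosen after seeing the data), and −0.65 to 0.66 with 1 library left out. The ratio to coding (0.73) was 0.80 with all ORFs as deposited (adjusted p = 0.0463, exact permutation test), −0.72 with caller p under 1e-4 and 0.54 to 0.92 with 1 library left out; to uORFs it was −0.48 to −0.01. Amino acid starvation gave −0.84 to −0.35, and serum starvation (0.46) 0.17 to 0.74, and −0.11 with caller p under 1e-4. The cause of these shifts was not tested. Swaps of fraction labels kept within letters as a replicate block leave fewer arrangements than swaps within condition alone. No sum passed in that setting, which could hardly give a pass after adjustment, so no conclusion is drawn from it. Of 23 named called differences, 16 kept direction and side of the threshold in all their alternatives and 0 reversed. Monosome libraries held 7402.5 to 34853 uoORF footprints and polysome libraries 59712 to 258064, and without the block starvation gave 0 calls in both fractions with edgeR.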
